A study of Mus musculus with 36 samples.

Results

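Prg4 encodes lubricin, also called proteoglycan 4, and is described here in the lungs of 36 mice. It is 1 gene of the 18116 gene names listed in the table for female mice and of the 18291 listed in the table for male mice, and 17716 names are in both. The gene was chosen from its measured counts in these same mice, so its levels and fold changes are given as a description, with no test. Wild-type C57BL/6 (B6) mice, 8 weeks old at the start, received saline (the vehicle control), MC252 oil (crude oil of the Deepwater Horizon spill), the dispersant Corexit 9500, the dispersant Corexit 9527, or oil with either dispersant (9500+oil, 9527+oil), with 3 female and 3 male mice in each of the 6 groups. Doses were given on days 0, 7 and 13, the mice were killed on day 14, and 1 library was made from the left lung of each mouse. The sample labels call the doses 0.1 WAF and the series design speaks of intratracheal instillation, while the study's methods describe 50 µL of a saline accommodated fraction given by oropharyngeal aspiration. Male and female mice were treated separately, so sex and treatment session cannot be told apart. The saline mice served as controls for all 5 treatments of their sex, and the comparisons therefore share them.

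Lubricin is a secreted, mucin-like glycoprotein that lowers friction where surfaces slide over each other. It is best known from joints, where superficial cartilage cells and the synovial lining make it and where it keeps cells and proteins from sticking to the cartilage. The middle of the protein is a long run of short repeats rich in threonine and proline that carry many sugar chains, and the ends hold somatomedin B-like and hemopexin-like domains. Lubricin binds CD44 and Toll-like receptors, its synthesis is known to respond to TGF-beta and to inflammatory cytokines, and cathepsins and other proteases cut it.

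The gene (ENSMUSG00000006014) lies at chr1:150449412-150466165 on the minus strand of GRCm38 and has 8 annotated transcripts of 337 to 4263 bases. The longest, Prg4-208, has 12 exons and 3663 coding bases. Exon 6, at chr1:150454052-150456337, holds 2286 of its bases, more than any other exon. The stretch of this exon that repeats most closely is shown because it is the DNA behind the sugar-bearing repeats that make lubricin a lubricant. It covers bases 1532 to 1771 of the transcript, at chr1:150455175-150455414, and is printed 5′ to 3′ on the transcript strand with each copy of the word CCCAAGGAGCCT in capitals.
Prg4 exon 6: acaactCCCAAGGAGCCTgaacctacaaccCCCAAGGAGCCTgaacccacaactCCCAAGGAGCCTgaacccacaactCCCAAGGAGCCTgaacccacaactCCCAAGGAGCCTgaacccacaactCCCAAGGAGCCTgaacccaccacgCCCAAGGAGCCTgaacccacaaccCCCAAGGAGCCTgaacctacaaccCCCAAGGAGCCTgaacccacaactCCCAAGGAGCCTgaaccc
When the 240 bases were set against themselves shifted by 24, 95.37% of the 216 positions compared were the same, against 48.45% over the whole transcript. The word occurs 10 times in the stretch and 39 times in the transcript.

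The last exon of Prg4 overlaps an exon of Tpr, a gene of the nuclear pore basket on the opposite strand. They share 204 bases, at chr1:150449732-150449935, which are 4.79% of the longest Prg4 transcript. Of the 3547 different words of 31 bases in the annotated Prg4 transcripts, 176 (4.96%) also occur in transcripts of other genes, and 0 do so on the same strand. The other genes number 2, and all 176 words occur in Tpr, the only one named here. The library kit marks the strand of the RNA, and whether Salmon was run with that setting is not given in the sources used here. Without it, reads of the shared bases could be assigned to either gene, so values of Tpr are also given below.

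**Figure D1:**
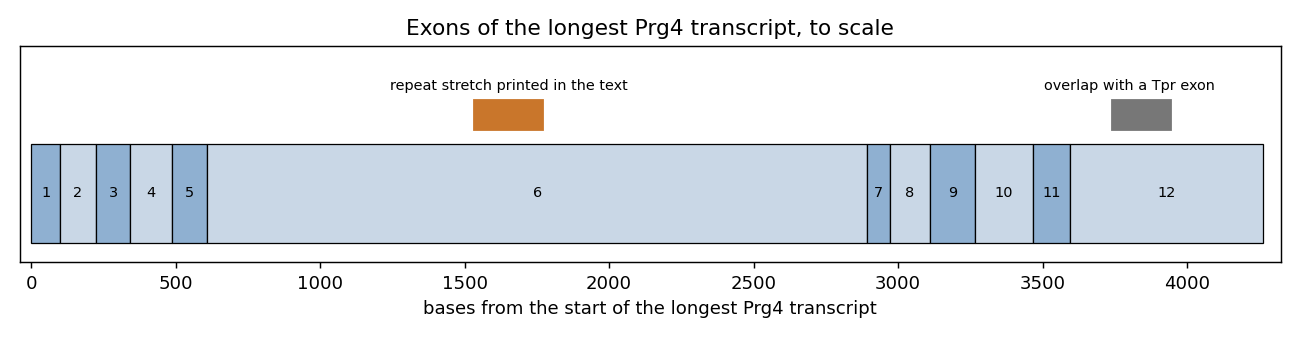
The 12 exons of the longest Prg4 transcript drawn to scale, with the position in the transcript in bases on the x axis, the closest repeats in exon 6 and the overlap with Tpr marked. Exon 6 holds 2286 of the 4263 bases, and the overlap with Tpr is confined to 204 bases in the last exon.

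Between 17501180 and 30011557 reads were counted on genes per female mouse and between 17703655 and 29685060 per male mouse. The counts are given as CPM, counts scaled to 1000000 per library after scaling by TMM (edgeR's correction for library composition) within each table, so that levels of female and male mice were scaled separately. All libraries held lung: Sftpc, a surfactant protein of alveolar type 2 cells, was at 3588 to 16390 CPM in female and 9027 to 15390 CPM in male mice. In 4 female libraries over 20% of the counts came from mitochondrial genes, namely saline mouse 3 (45.1%), Corexit 9527 mouse 11 (38.4%), oil mouse 6 (22.6%) and 9500+oil mouse 14 (20.7%). The other female libraries had at most 11.3% and the male libraries 5.27% to 7.68%. Results that rest on these 4 libraries are therefore given with and without them.

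In male mice every one of the 15 treated lungs held more Prg4 than every saline lung. The 3 saline mice had 2.64, 2.47 and 2.80 CPM, from 53, 47 and 62 reads, and the exact 95% Poisson interval of the lowest of these counts was 34.5 to 62.5 reads (such intervals cover counting error only). The 3 mice treated with oil had 14.0, 11.9 and 11.0 CPM, and the 3 mice treated with Corexit 9500 had 10.6, 15.9 and 13.1 CPM. Both groups lay well clear of saline and overlapped each other. Mice treated with Corexit 9527 had 4.81, 8.33 and 5.17 CPM, the lowest of the treated groups. Mice treated with 9500+oil had 3.54, 13.8 and 17.7 CPM, and mice treated with 9527+oil had 21.7, 10.3 and 12.2 CPM. The mixtures had the widest spread, and the first 9500+oil mouse was the treated mouse nearest to saline.

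Ordered by their medians, the male groups ran from saline (2.64 CPM) through Corexit 9527 (5.17), oil (11.9), 9527+oil (12.2) and Corexit 9500 (13.1) to 9500+oil (13.8). The ranges of saline and Corexit 9527 did not overlap, nor did those of Corexit 9527 and oil, while the other neighbours in this order overlapped. The group means were 2.63 ± 0.167 CPM in saline, 6.10 ± 1.94 with Corexit 9527, 12.3 ± 1.51 with oil, 14.7 ± 6.08 with 9527+oil, 13.2 ± 2.65 with Corexit 9500 and 11.7 ± 7.30 with 9500+oil (SD, n = 3 mice each). Corexit 9527 thus lay between saline and the oil and Corexit 9500 groups without overlap, while 9500+oil spanned the whole Corexit 9527 range.

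**Figure D2:**
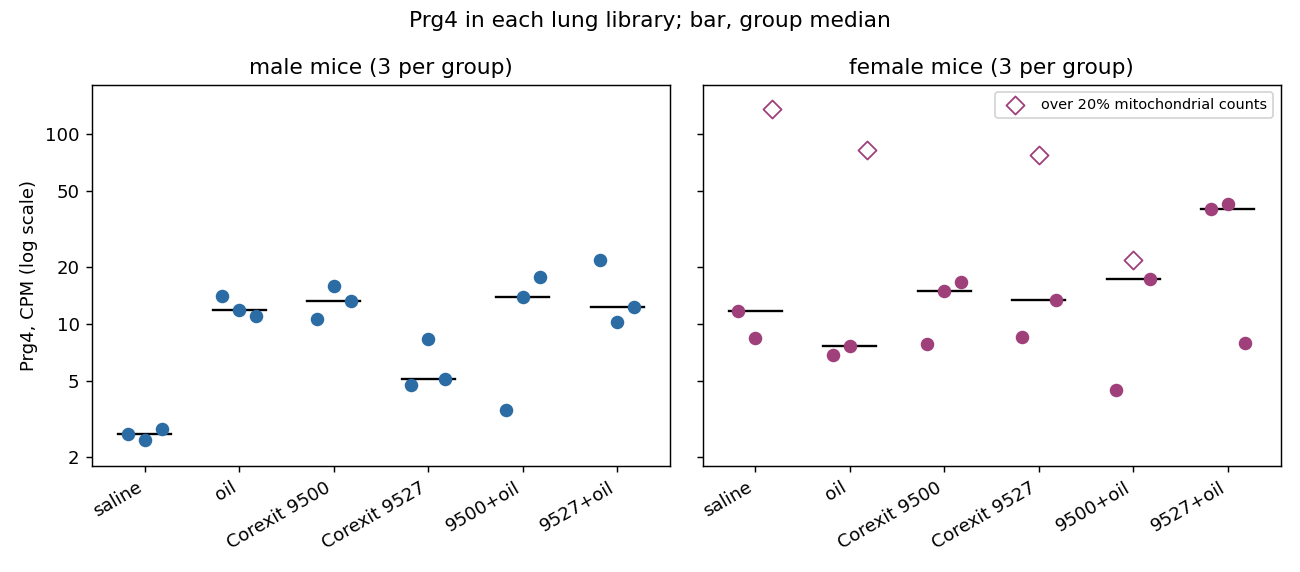
Prg4 in each mouse, in CPM on a log axis, by treatment group, for male (left) and female (right) mice; each point is 1 mouse, the bar is the group median, and open diamonds are the 4 female libraries with over 20% mitochondrial counts. All 15 treated male mice sit above the 3 male saline mice, while the female groups overlap, with female saline mouse 3 the highest of all at 135 CPM after TMM scaling.

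Fitted across all genes with edgeR, Prg4 in male mice was 4.64-fold higher than in saline with oil (log2 fold change 2.21, SE 0.18), 5.00-fold higher with Corexit 9500 (2.32, SE 0.20) and 2.31-fold higher with Corexit 9527 (1.21, SE 0.28). It was 4.42-fold higher with 9500+oil (2.14, SE 0.49) and 5.58-fold higher with 9527+oil (2.48, SE 0.30). Counted from the top among the fold changes of all genes tested in male mice, Prg4 stood at place 21 with oil, 12 with both Corexit 9500 and 9500+oil, 254 with Corexit 9527 and 4 with 9527+oil. That all 3 treated mice lay above all 3 saline mice was true of 7.42% of the 14914 genes tested with oil, 7.86% with 9500+oil, 5.92% with 9527+oil, 6.39% with Corexit 9500 and 10.7% with Corexit 9527. All 15 treated male mice lay above all 3 saline mice for 63 of 15519 genes (0.406%), Prg4 among them. These shares are given as a description, since the values that chose the gene are the same ones.

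Between treatments, male Prg4 was lower with Corexit 9527 than with Corexit 9500 in every mouse, by 2.16-fold (log2 fold change -1.11, SE 0.25). It was also lower with Corexit 9527 than with oil, by 2.00-fold (SE 0.24 on the log2 scale). Adding oil to Corexit 9527 went with a level 2.40-fold higher than Corexit 9527 alone (1.27, SE 0.33), again without overlap. For comparison, 5.42% of the genes tested were lower in all 3 Corexit 9527 mice than in all 3 Corexit 9500 mice, 7.07% were lower with Corexit 9527 than with oil in the same way, and 8.02% were higher with 9527+oil than with Corexit 9527. The other 5 pairs of treatments overlapped in male mice. There the log2 differences were 0.11 (SE 0.18) for Corexit 9500 against oil, -0.08 (SE 0.46) for 9500+oil against oil, 0.27 (SE 0.27) for 9527+oil against oil, -0.18 (SE 0.46) for 9500+oil against Corexit 9500 and 0.34 (SE 0.52) for 9527+oil against 9500+oil. The 3 pairs with 9500+oil had the widest standard errors, each larger than the difference itself.

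In female mice Prg4 showed no such order, and every treated group overlapped the saline group. The 3 saline mice had 11.7, 8.46 and 135 CPM, the last being saline mouse 3, the library with the largest mitochondrial share. Mice treated with oil had 6.89, 7.64 and 81.5 CPM, and mice treated with Corexit 9527 had 8.54, 76.8 and 13.4 CPM. In both groups the highest value belonged to the library with over 20% mitochondrial counts. Mice treated with Corexit 9500 had 7.89, 14.9 and 16.6 CPM. Mice treated with 9500+oil had 4.51, 21.7 and 17.2 CPM, where mouse 14, of high mitochondrial share, was again the highest. Mice treated with 9527+oil had 40.0, 42.6 and 7.92 CPM, and here mice 16 and 17 were high without an unusual mitochondrial share. The medians ran from oil (7.64 CPM) through saline (11.7), Corexit 9527 (13.4), Corexit 9500 (14.9) and 9500+oil (17.2) to 9527+oil (40.0), and every pair of neighbours overlapped.

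The highest female level was 29.8 times the lowest, against 8.78 times in male mice. Of the 15 treated female mice, 0 lay above all 3 saline mice and 5 lay below them. The top place of saline mouse 3 depended on the scaling, as its TMM factor was 0.488. On total counts alone it had 65.7 CPM and oil mouse 6 had 67.8 CPM. With mitochondrial genes left out of the total, the values were 120 and 87.6 CPM. Without the 4 libraries, 6 of the 12 treated mice lay above and 5 below both remaining saline mice. Those saline mice, at 8.46 and 11.7 CPM, were above the 2.47 to 2.80 CPM of the male saline mice, on scales set separately for each table.

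Each of the 4 libraries with a high mitochondrial share held more Prg4 than the other mice of its group, by 3.75, 3.47, 2.83 and 1.29 on the log2 scale in saline mouse 3, oil mouse 6, Corexit 9527 mouse 11 and 9500+oil mouse 14. These differences were larger than those of 98.7%, 99.4%, 97.8% and 90.3% of 15526 genes. Tpr, the overlapping gene, moved the same way in them, by 2.45, 1.04, 2.11 and 1.20 on the log2 scale. Its level was 1058, 419, 893 and 441 CPM in these 4 libraries, against 159 to 242 CPM in the other female and 193 to 251 CPM in the male libraries. In 9527+oil mice 16 and 17, where Prg4 was also high, Tpr was at 199 and 191 CPM, within the range of the other libraries. In male mice, likewise, the log2 fold change of Tpr against saline lay between -0.05 and 0.09 in all 5 comparisons. The part of the mitochondrial share and of Tpr reads in the female levels was not tested.

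**Figure D3:**
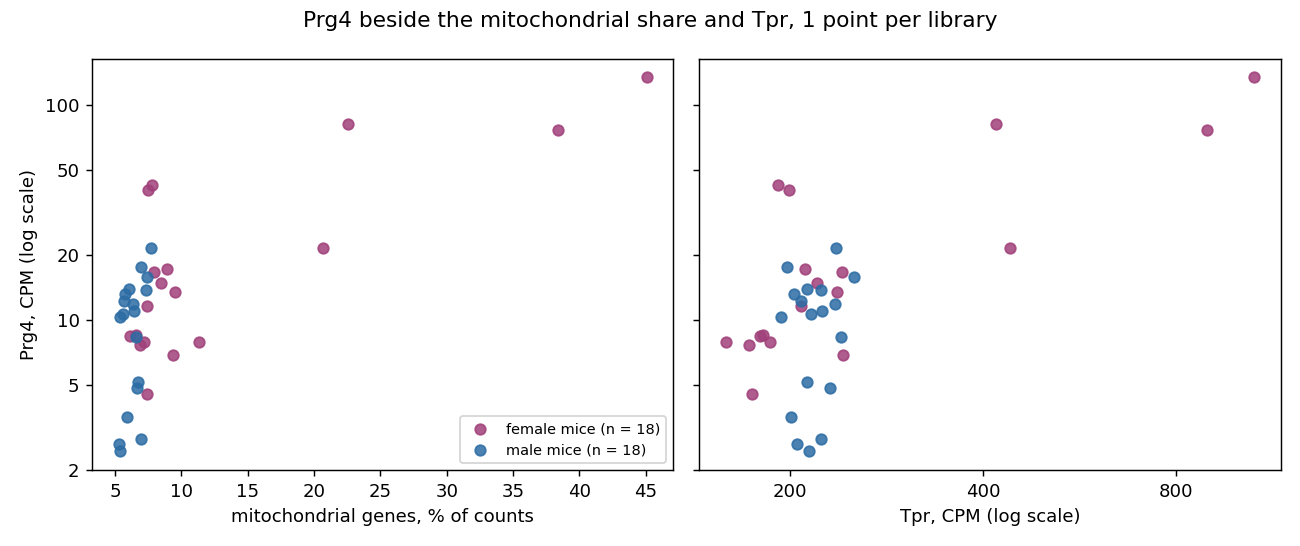
Prg4 in CPM (log axis) against the percentage of counts from mitochondrial genes (left) and against Tpr in CPM (right), with 1 point per library. The 4 female libraries with 20.7% to 45.1% mitochondrial counts stand apart on both x axes, and the male libraries span 2.47 to 21.7 CPM of Prg4 at 193 to 251 CPM of Tpr.

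Against saline, the fitted log2 fold changes of female mice were -0.83 (SE 1.44) with oil, -1.98 (SE 1.10) with Corexit 9500, -0.68 (SE 1.33) with Corexit 9527, -1.97 (SE 1.23) with 9500+oil and -0.80 (SE 1.22) with 9527+oil. All 5 were negative, and saline mouse 3 was among the controls of each. Without the 4 libraries they were -0.46 (SE 0.27), 0.39 (SE 0.38), 0.14 (SE 0.30), 0.12 (SE 0.55) and 1.59 (SE 0.62) in the same order, so that 4 of the 5 changed sign. Leaving out saline mouse 3 alone gave 1.67, 0.39, 1.71, 0.52 and 1.59. Of the 5 treatments, 9527+oil was the one with the highest fold change in male mice and, without the 4 libraries, also in female mice, where it rested on mice 16 and 17.

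Over both sexes, with sex as a covariate, the log2 fold changes were 0.71 (SE 0.96) with oil, 0.13 (SE 1.04) with Corexit 9500, 0.24 (SE 0.79) with Corexit 9527, 0.14 (SE 1.05) with 9500+oil and 0.80 (SE 0.91) with 9527+oil. None of these was as large as its own standard error. Without the 4 libraries they were 1.12 (SE 0.45), 1.40 (SE 0.36), 0.75 (SE 0.25), 1.29 (SE 0.52) and 2.03 (SE 0.39). Without female saline mouse 3 alone they were 1.97, 1.40, 1.44, 1.38 and 2.03. The male log2 fold change minus the female one was 3.04 (SE 1.45), 4.30 (SE 1.11), 1.89 (SE 1.36), 4.11 (SE 1.33) and 3.28 (SE 1.25), all with saline mouse 3 in the female control group. Without the 4 libraries it was 2.67 (SE 0.32), 1.93 (SE 0.42), 1.07 (SE 0.41), 2.03 (SE 0.74) and 0.89 (SE 0.69).

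**Figure D4:**
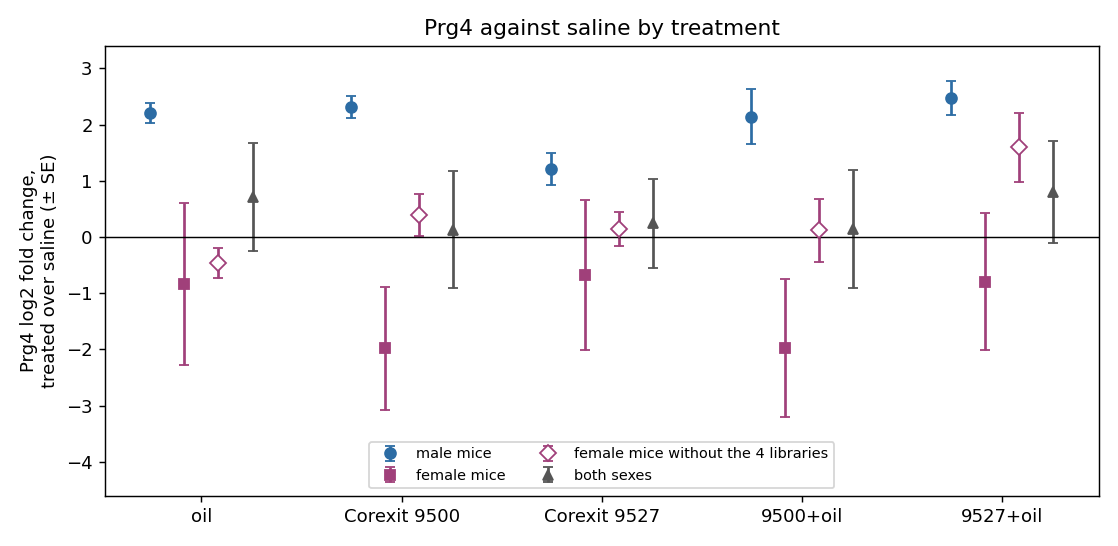
Log2 fold change of Prg4 against saline for the 5 treatments, with bars of 1 standard error, in male mice, in female mice, in female mice without the 4 libraries of high mitochondrial share, and in both sexes. The male values lie between 1.21 and 2.48, and the female values between -1.98 and -0.68, which become -0.46 to 1.59 without the 4 libraries.

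Pooled over the groups, Prg4 varied more between mice of a group than most genes of similar level. Its pooled SD within groups was 0.60 on the log2 CPM scale in male mice, where the median of 1716 genes within 0.5 log2 CPM of its level was 0.24, and it exceeded 96.1% of them. The male groups were uneven: the SD was 1.23 with 9500+oil, 0.0884 in saline, 0.173 with oil and 0.29 to 0.56 in the others. In female mice its SD was 1.59 against a median of 0.59, above 90.8% of 2499 such genes, and without the 4 libraries it was 0.91 against 0.30, above 97.2% of 2202. Per kilobase of transcript, the male saline mean was 0.615 CPM per kb, above 26.4% of the 17450 genes with a known length. The male treated means reached from 1.43 CPM per kb with Corexit 9527 (above 34.5% of genes) to 3.44 CPM per kb with 9527+oil (above 49.2%). Female means ran from 3.07 CPM per kb with Corexit 9500 (above 49.7% of 17295 genes) to 12.1 CPM per kb in saline (above 79.7%). The female order changed without the 4 libraries, from 1.70 CPM per kb with oil (above 39.0%) through 2.35 CPM per kb in saline (above 44.2%) to 7.05 CPM per kb with 9527+oil (above 68.9%). In bulk tissue, fewer cells of a type and less RNA per cell cannot be told apart.

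The neighbours of Prg4 on chromosome 1 did not pass the test in any treatment in either sex (edgeR's quasi-likelihood test with Benjamini-Hochberg adjustment). These were Tpr, Ptgs2, the inducible cyclooxygenase, whose nearer end lies 341185 bases away, and Pla2g4a, the cytosolic phospholipase A2, on the side of lower coordinates, and Hmcn1, an extracellular matrix protein 96359 bases away, and Ivns1abp on the other. In male mice the log2 fold changes against saline were -0.25 to 0.10 for Ptgs2, -0.17 to 0.15 for Pla2g4a, -0.48 to -0.20 for Hmcn1 and -0.25 to -0.07 for Ivns1abp. The lowest adjusted p among them was 0.0692, for Hmcn1. In female mice the lowest adjusted p of each neighbour was 0.914. Their female log2 fold changes were -1.35 to -0.16 for Tpr and -1.21 to -0.29 for Ptgs2, all negative, with saline mouse 3 among the controls. They were -0.29 to 0.25 for Pla2g4a, -0.43 to 0.16 for Hmcn1 and -0.40 to 0.39 for Ivns1abp. Without the 4 libraries of high mitochondrial share, the female group means of Tpr were 192 to 209 CPM. Gm8941, also among the nearest, was too low to be tested.

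Genes that act on, bind, cut or accompany lubricin were followed in 5 lists of 60 genes together, of which 56 are in both tables and 51 passed the filter on low counts in the fits over both sexes. Few of them passed a test in any treatment. At an adjusted p under 0.05, 1 gene rose, Hmmr with Corexit 9527, and none passed in the other 4 treatments by edgeR or by DESeq2. In that comparison 0.0331% of all 15107 genes tested passed. At an unadjusted p under 0.05, the level at which the study counted genes, 0 of the 51 were higher and 1 lower with oil, where 0.284% of all genes were higher and 0.152% lower. With Corexit 9500 there were 5 higher and 0 lower (1.29% and 0.973% of all genes), with Corexit 9527 4 higher and 0 lower (2.27% and 0.596%), with 9500+oil 0 and 0 (0.199% and 0.192%) and with 9527+oil 4 higher and 1 lower (1.05% and 1.89%). The listed genes past an unadjusted p under 0.05 in either direction, without the 4 libraries of high mitochondrial share, numbered 12 in mice given Corexit 9527 (15.7% of all genes), 8 for 9527+oil (10.6%), 6 for Corexit 9500 (5.65%), 4 for 9500+oil (7.1%) and 3 for oil alone (2.52%), so that the share of all genes rose as well. The median log2 fold change of the listed genes, all libraries included, was 0.03, -0.06, 0.03, -0.02 and 0.00 in these 5 comparisons, against 0.01, 0.03, 0.01, 0.04 and 0.03 over all genes.

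In male mice alone, where Prg4 was higher in every treated lung, 7 of 50 listed genes were higher and 3 lower with oil at an unadjusted p under 0.05, and 8.21% of all genes passed in either direction. With Corexit 9500 the counts were 4 higher and 1 lower of 51 (6.35% of all genes), with Corexit 9527 10 higher and 4 lower of 50 (13.7%), with 9500+oil 1 higher and 1 lower of 49 (9.22%) and with 9527+oil 4 higher and 0 lower of 49 (5.54%). Over the 5 treatments, the listed genes were thus called most often with Corexit 9527, the treatment in which male Prg4 was least above saline and in which the largest share of all genes passed. At an adjusted p under 0.05, 2 listed genes rose with Corexit 9527 by edgeR, Hmmr and Fn1, and 0.114% of all 14919 genes passed. DESeq2 called 6 listed genes in the same mice, Cd44, Ctss, Fn1, Hmmr, Lgals3 and Ogn, and 3.93% of all genes. Over both sexes it called 2, Fn1 and Hmmr, and 0.834% of all genes. Adjusted p-values below are those of edgeR. Apart from genes that the rule given with the methods names, the genes named below were picked after their values were seen, most of them because they passed the unadjusted test and some for their level.

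Among the 15 signals and factors known to act on Prg4, none passed after adjustment by edgeR. Creb5, a transcription factor known to drive Prg4 in superficial cartilage, had male log2 fold changes of 1.45 (SE 0.50) with oil, 0.87 (SE 0.65) with Corexit 9500, 1.24 (SE 0.72) with Corexit 9527, 0.73 (SE 0.54) with 9500+oil and 1.25 (SE 0.51) with 9527+oil. Its male level was 0.367 to 1.63 CPM in saline and 1.93 to 3.11 CPM with oil, which did not overlap, while in Corexit 9527 it reached from 0.517 to 3.51 CPM. Creb5 was higher at an unadjusted p under 0.05 with oil and 9527+oil in male mice and with 9527+oil over both sexes (1.98, SE 0.74), where its adjusted p was 0.832. Of the cytokines, Tnf was higher in male mice with oil (0.97, SE 0.37) and Corexit 9527 (0.91, SE 0.38), Il1a with oil (0.45, SE 0.19) and Il1b with 9527+oil (1.25, SE 0.54), each at an unadjusted p under 0.05. Neither the TGF-beta ligands nor the Smad genes passed in any treatment in male mice, and of the TGF-beta receptors Tgfbr1 was higher with Corexit 9527 (0.25, SE 0.10).

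Among the receptors and binding partners of lubricin, Fn1, which encodes the matrix protein fibronectin, was at 913 to 940 CPM in male saline mice and at 1411 to 1623 CPM with Corexit 9527. Its male level was also above every saline mouse with oil (1185 to 1964 CPM), Corexit 9500 (1006 to 1546 CPM) and 9500+oil (1020 to 1096 CPM), but not with 9527+oil (914 to 1335 CPM). With Corexit 9527 it rose by 0.73 on the log2 scale (SE 0.098, adjusted p = 0.0468, edgeR, n = 3 mice each). Over both sexes the difference was 0.71 (SE 0.16, adjusted p = 0.384), and Fn1 was higher at an unadjusted p under 0.05 also with Corexit 9500 (0.56) and 9527+oil (0.42). Cd44, the hyaluronan receptor to which lubricin also binds, was at 207 to 237 CPM in male saline mice, 255 to 343 CPM with oil, 264 to 333 CPM with Corexit 9527 and 254 to 273 CPM with 9527+oil. These 3 groups lay above saline without overlap, with log2 fold changes of 0.42, 0.42 and 0.28, none of which passed after adjustment by edgeR, while DESeq2 called Cd44 with Corexit 9527. Lgals3, a galactose-binding lectin, was higher in male mice with Corexit 9527 (0.63, SE 0.15) and Corexit 9500 (0.41, SE 0.17) at an unadjusted p under 0.05. Tlr2 was higher with Corexit 9527 (0.31, SE 0.12) and Tlr4 lower with Corexit 9500 (-0.26, SE 0.10) in the same way.

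Of the 5 proteases known to cut lubricin, 2 are in both tables. Ctss, a lysosomal cysteine protease of macrophages, was at 160 to 226 CPM in male saline mice, 251 to 358 CPM with oil and 268 to 309 CPM with Corexit 9527. The differences of 0.66 (SE 0.17) and 0.55 (SE 0.14) on the log2 scale passed edgeR's unadjusted test alone, and DESeq2 called Ctss with Corexit 9527 after adjustment. With 9500+oil (171 to 239 CPM) and 9527+oil (148 to 241 CPM) the range of Ctss overlapped saline.

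Among the 14 genes of hyaluronan, the long sugar polymer with which lubricin works in joint fluid, Hmmr alone passed after adjustment. It encodes a hyaluronan receptor that is also a mitotic spindle protein. In male mice it was at 2.36 to 2.83 CPM in saline and 6.98 to 12.6 CPM with Corexit 9527, a rise of 2.01 on the log2 scale (SE 0.27, adjusted p = 0.0468, edgeR). Over both sexes the rise was 1.89 (SE 0.27, adjusted p = 0.0494). Neither edgeR call with Corexit 9527 was stable in fits that left out 1 mouse in turn, which also have fewer mice. Hmmr passed in 2 of 12 such fits over both sexes (adjusted p 0.0208 to 0.258) and in 1 of 6 fits of male mice (0.00814 to 0.221), and Fn1 in 1 of the 6 (0.0217 to 0.221). The Hmmr call held in male mice without Corexit 9527 mouse 12, and over both sexes without that mouse or without female saline mouse 3. By DESeq2 with all mice, the adjusted p of Hmmr was 5.08e-10 over both sexes and 2.71e-08 in male mice. By edgeR over both sexes it was 0.00168 without the 4 libraries of high mitochondrial share and 0.0599 with DESeq2's size factors. The hyaluronidases Hyal1 (-0.39, SE 0.14) and Hyal2 (-0.51, SE 0.17) were lower in male mice with Corexit 9527 at an unadjusted p under 0.05. Of the hyaluronan synthases, Has2 was higher with Corexit 9527 in male mice (1.77, SE 0.67), and Has1 was lower with oil (-0.90, SE 0.37) and 9500+oil (-1.73, SE 0.45).

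Among the 18 genes of cartilage, tendon and synovial matrix, none passed after adjustment by edgeR with all mice. Sox9, the master transcription factor of cartilage cells, which airway epithelium also uses, was at 0.348 to 0.542 CPM in male saline mice, a low level, and at 1.10 to 2.73 CPM with Corexit 9527 (1.87, SE 0.49). It was higher with 9500+oil (1.10, SE 0.44) and 9527+oil (1.27, SE 0.51) as well at an unadjusted p under 0.05. Ogn (osteoglycin) was lower with Corexit 9527 (-0.61, SE 0.16), a difference that passed after adjustment by DESeq2 and by edgeR without male Corexit 9527 mouse 12, and Cilp2 (-1.70, SE 0.45) and Lum (lumican, -0.40, SE 0.16) were lower with oil. Of the structural genes of cartilage, Acan (aggrecan) was at 0 in 13 of the 18 male mice and Matn3 in 12, and Col2a1 did not exceed 0.995 CPM in any male mouse. Others were present in every male mouse, with Chad (chondroadherin) at 43.1 to 76.8 CPM, Col11a2 at 2.24 to 8.22 CPM, Fmod (fibromodulin) at 6.23 to 26.9 CPM and Prelp at 567 to 1029 CPM.

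**Figure D5:**
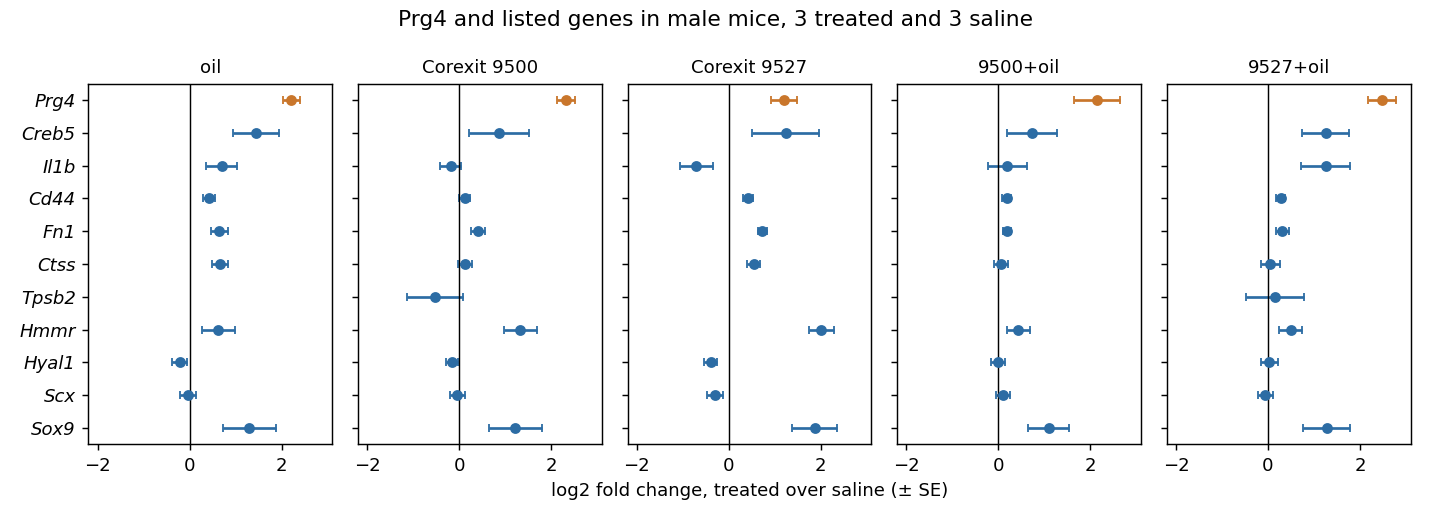
Log2 fold change against saline in male mice for Prg4 and for 2 genes of each list that act on, bind, cut or accompany lubricin, with bars of 1 standard error, in 1 panel per treatment. Prg4 lies at 2.14 to 2.48 with the treatments other than Corexit 9527, where it is at 1.21 and Hmmr (2.01), Sox9 (1.87) and Creb5 (1.24) lie above it; Tpsb2 is shown only where it was tested.

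The cells that could hold Prg4 RNA were followed by the summed CPM of their marker genes in male mice. Mesothelium, the sheet that covers the lung and lines the chest cavity, summed to 494 to 554 CPM in saline and 467 to 644 CPM in treated mice (11 of 12 markers listed), and with oil all 3 mice (467 to 474 CPM) lay below saline. Its defining genes Msln and Upk3b were detected in every male mouse, at no less than 47.8 and 48.8 CPM. Krt19 was the highest of the listed markers, at 130 to 360 CPM, and so weighed most in the sum. Upk3b, a uroplakin, lay below the saline mice in all 15 treated male mice, at 48.8 to 75.7 CPM against no less than 76.9 CPM, as did 34 of 15519 genes (0.219%). With Corexit 9527, 9 of the 11 tested mesothelium markers had a negative male log2 fold change (median -0.52), 6 being lower and 2 higher at an unadjusted p under 0.05. Over all genes the median was -0.01, and 5.78% were lower and 7.96% higher. With Corexit 9500, 9 of the 11 were also negative (median -0.19, against -0.01 over all genes), and 2 were higher and 1 lower at an unadjusted p under 0.05, where 4% of all genes were higher and 2.36% lower. The sum was 532 to 593 CPM there and overlapped saline. Markers of macrophages of the pleural and peritoneal cavities summed to 491 to 682 CPM in saline and 403 to 704 CPM in treated mice (7 of 8 markers). Lyve1 (208 to 469 CPM) and Icam2 (97.1 to 187 CPM) weighed most in this sum, while Timd4 was at 1.02 to 3.31 CPM. Cartilage markers summed to 53.1 to 60.6 CPM in saline and 51.0 to 85.2 CPM in treated mice (12 of 16), most of it Chad. Neither sum set any male treatment apart from saline.

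Marker sums of other lung cells lay apart from saline with some treatments, though such sums do not count cells. Interstitial macrophages and monocytes summed to 296 to 342 CPM in male saline mice and lay above that range in all mice given oil (499 to 688 CPM), Corexit 9527 (416 to 495 CPM), 9500+oil (352 to 385 CPM) and 9527+oil (361 to 471 CPM), but overlapped it with Corexit 9500 (307 to 417 CPM). Neutrophil markers were higher than saline (300 to 325 CPM) with oil (343 to 1026 CPM) and lower with Corexit 9527 (123 to 284 CPM). With 9527+oil they summed to 247, 1029 and 1322 CPM, the first of these below saline. There the fitted fold change of male Prg4 was the highest, but its median was below those of Corexit 9500 and 9500+oil. At an unadjusted p under 0.05, 6 of 9 tested neutrophil markers were higher and 1 lower with 9527+oil (median log2 fold change 1.54, with 5.54% of all genes passing in either direction). The activated fibroblast sum was higher with Corexit 9527 (2875 to 3453 CPM against 2153 to 2396 CPM) and the alveolar fibroblast sum lower (2679 to 3638 CPM against 3729 to 4115 CPM). Of 11 tested activated fibroblast markers, 7 had a positive and 4 a negative log2 fold change there. Spp1, an activated fibroblast marker here that macrophages also make, rose with Corexit 9527 in male mice by 1.61 on the log2 scale (adjusted p = 0.0147, edgeR).

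Of the 18 marker lists, the ranges of 8 did not overlap with saline in male mice given oil, 6 in those given Corexit 9527, 3 with 9527+oil, 1 with 9500+oil and 0 with Corexit 9500. In the same order, 4, 2, 2, 1 and 0 of these lists lay higher. Among single genes, 5.92% to 10.7% lay entirely above saline, depending on the treatment. The share lying entirely below is not given for each treatment. Whether these counts of lists, or the female ones below, exceed those of other gene sums was not tested. Beside those already given, the lists apart from saline with oil were alveolar macrophages and liver (higher) and heart and skeletal muscle, adipose tissue, and esophagus (lower). With Corexit 9527 they were platelets and erythroid cells (lower), and with 9527+oil liver (higher) and esophagus (lower), the last 2 lists being at most 18.2 and 2.05 CPM in any male mouse. Lung epithelium, adventitial fibroblasts, smooth muscle and thymus overlapped saline in every male comparison. Single markers moved also where sums overlapped. With Corexit 9500 in male mice, 5 of 5 erythroid and 3 of 9 platelet markers were lower, and 5 of 11 activated fibroblast and 3 of 9 interstitial macrophage markers higher, at an unadjusted p under 0.05, where 4% of all genes were higher and 2.36% lower. In female mice 1 to 3 lists lay apart in each comparison with all libraries, and 3 to 7 without the 4 libraries of high mitochondrial share, which left 2 saline mice. With all libraries the alveolar macrophage sum (795 to 1016 CPM in saline) was higher with Corexit 9527 (1410 to 2350 CPM) and lower with 9527+oil (581 to 597 CPM). Without the 4 libraries the lung epithelium sum (33886 to 34151 CPM in saline) was lower with Corexit 9527 (26852 to 32195 CPM) and 9527+oil (21933 to 28913 CPM). Without the 4 libraries, the mesothelium sum was lower than saline (455 to 458 CPM) with oil (453 CPM in both mice), 9500+oil (394 to 433 CPM) and 9527+oil (414 to 447 CPM). With Corexit 9527 the sum was higher (463 to 532 CPM), but most single markers went the other way over both sexes with all libraries. There 9 of 11 tested were negative (median log2 fold change -0.46, against 0.01 over all genes). At an unadjusted p under 0.05, 0 were higher and 2 lower, where 2.27% of all genes were higher and 0.596% lower. The activated fibroblast sum without the 4 libraries was higher with Corexit 9527 as well (2315 to 2489 CPM against 1685 to 2068 CPM). The part of these cells in the Prg4 levels was not tested.

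Finally, the genes whose levels followed Prg4 most closely were ranked by the lower of their female and male Pearson correlations of log2 CPM with Prg4, over 18 mice of each sex and 12719 genes. The 10 nearest were Zdhhc9, Dusp19, Phf8, Mphosph8, Wnk1, Znrd1as, Lyar, Ralgps1, Zrsr2 and Smarcc1. The nearest, Zdhhc9, which encodes a protein palmitoyltransferase, had r = 0.72 in female and 0.69 in male mice (Spearman's rho 0.66 and 0.75), and 0.68 and 0.60 without the 2 mice of each sex farthest from the median of Prg4. Phf8, a histone demethylase, had r = 0.86 and 0.68 (rho 0.85 and 0.71), and 0.77 and 0.54 without those mice. None of the 10 lies on chromosome 1 or belongs to the lubricin lists. The female points share the 4 libraries of high mitochondrial share: without them r in female mice was 0.43 for Zdhhc9, 0.61 for Phf8 and -0.42 for Znrd1as. Other ways of measuring likeness kept 1 to 3 of these 10 genes.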

How the data were processed

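The authors estimated the reads of each transcript of the GRCm38 cDNA set with Salmon (version not given in the sources used here) and combined them with tximport, and they deposited the resulting expected counts, with no normalization, in a table for female and a table for male mice. Rows carry gene symbols. The values were to be rounded but were already whole numbers. Of each table, 4 rows that share a name with another row were left out (0.0103% of the female and 0.0128% of the male counts). The sample labels gave each column its sex, treatment and mouse, and each library is a separate mouse. No pair of libraries was alike beyond sampling noise, with a chi-square per gene of at least 11.4 in female and 12.5 in male mice.

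Every fit was made across all genes with edgeR 4.0.16 in R 4.3.3 (TMM, filterByExpr, quasi-likelihood F-test, Benjamini-Hochberg adjustment over all genes tested) on the mice of the 2 groups compared, with sex as a covariate over both sexes. A standard error is the log2 fold change divided by the square root of F. CPM used effective library sizes within a table, and log2 CPM a prior count of 2. Positions and sequence are those of GRCm38 with the GENCODE M21 annotation. The code was tested on simulated data. The gene, the gene lists and the comparisons were chosen with earlier results of these data known.

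Genes were named by this rule: Prg4, the 10 genes most like it with a mean of at least 1 log2 CPM in both tables, the 3 nearest listed genes on each side, and in each list the 2 members with the smallest p with Corexit 9527 over both sexes and any member past an adjusted p of 0.05 over both sexes. Alternatives were DESeq2 1.42.0 (the study's tool), DESeq2's size factors in edgeR, a single fit of all 6 groups, no filter or a minimum of 10 counts per mouse, no sex term, without the 4 libraries of high mitochondrial share, and each mouse left out in turn. Counts of listed genes in male mice and in female mice alone were added after seeing the data.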

Additional observations from a re-analysis of the deposited data

How the results depend on the processing

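In male mice, no log2 fold change of Prg4 against saline moved by 1 SD or changed sign in 45 fits with other settings or in 30 that left out 1 mouse (0.92 to 2.68, lowest for Corexit 9527 without mouse 11). Between male treatments 7 of 48 fits without 1 mouse changed sign, all in pairs whose ranges overlapped. Female values depended on the 4 libraries of high mitochondrial share. Without them Prg4 against saline was 0.39 with Corexit 9500, 0.12 with 9500+oil and 1.59 with 9527+oil, Corexit 9527 against Corexit 9500 was -0.26, 9527+oil against Corexit 9527 1.46, 9527+oil against oil 2.06, 9500+oil against oil 0.59 and Corexit 9500 against oil 0.86. Leaving out 1 mouse in turn, female values against saline ran from -2.87 to 1.67 with oil, -2.48 to 0.39 with Corexit 9500, -2.26 to 1.71 with Corexit 9527, -2.48 to 0.52 with 9500+oil and -1.30 to 1.59 with 9527+oil. Between female treatments they ran from -0.26 to 1.78 (Corexit 9527 against Corexit 9500), -0.58 to 1.46 (9527+oil against Corexit 9527), -0.56 to 2.06 (9527+oil against oil), -1.61 to 1.00 (9500+oil against oil), -1.55 to 2.18 (Corexit 9527 against oil) and -1.76 to 0.86 (Corexit 9500 against oil). Over both sexes Corexit 9500 against saline was -1.15 with no sex term, 1.40 without the 4 libraries and -0.38 to 1.40 without 1 mouse. The cause of these shifts was not tested.

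The count of listed genes at an unadjusted p under 0.05 over both sexes also moved. With oil it was 2 with no filter, 0 with at least 10 counts in every mouse or no sex term, 3 without the 4 libraries, 10 in male and 0 in female mice, and 0 to 3 without 1 mouse. With Corexit 9500 it was 8 by DESeq2, 9 with all 6 groups in a single fit, 0 in female mice, and 2 to 7 without 1 mouse. With Corexit 9527 it was 12 without the 4 libraries, 14 in male and 1 in female mice. With 9500+oil it was 1 by DESeq2, 4 without the 4 libraries, 2 in male mice, and 0 to 2 without 1 mouse. With 9527+oil it was 3 with at least 10 counts in every mouse, 2 with no sex term, 8 without the 4 libraries, 0 in female mice, and 3 to 8 without 1 mouse. The single adjusted call, Hmmr with Corexit 9527, became 0 calls with DESeq2's size factors (adjusted p 0.0599), with no filter, with no sex term and in female mice, 2 by DESeq2, 4 without the 4 libraries (Ctss, Fn1, Hmmr and Lgals3), 2 in male mice, and 0 to 1 without 1 mouse. The count over all genes moved with these settings too. Without the 4 libraries it went from 66 to 387 with oil, from 344 to 869 with Corexit 9500, from 433 to 2397 with Corexit 9527, from 59 to 1082 with 9500+oil and from 448 to 1633 with 9527+oil. By DESeq2 it was 160, 577, 693, 184 and 848 in that order, in male mice 1224, 960, 2050, 1373 and 829, and in female mice 16, 54, 40, 23 and 164. With Corexit 9500 and all 6 groups in a single fit it was 898. For oil it was 171 with no filter, 63 with at least 10 counts in every mouse and 61 with no sex term, and for 9527+oil 476 and 536 with the last 2. Leaving out 1 mouse gave 33 to 273 genes with oil, 167 to 869 with Corexit 9500, 285 to 959 with Corexit 9527, 35 to 272 with 9500+oil and 186 to 1633 with 9527+oil. Adjusted calls over all genes with Corexit 9527 went from 5 to 126 by DESeq2 and to 343 without the 4 libraries. Of the 10 genes most like Prg4, 1 remained with Spearman's rho, 2 without the 4 libraries, 2 within groups and 3 without the 2 farthest mice.

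No paired analysis was possible because treated and saline mice of a sex share no mouse number. Male saline mice held 47 to 62 Prg4 reads each, which limits the precision of every male fold change.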
